A study of Mus musculus with 4 samples.

Results

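The muscle atrophy and myostatin pathway genes are 10 genes chosen by symbol: the ubiquitin ligase genes Fbxo32 and Trim63, the transcription factor genes Foxo1 and Foxo3, the myostatin axis genes Mstn, Fst, Acvr2b and Smad3, and the stress-responsive genes Ddit4 and Gadd45a. They are 10 of 21755 protein-coding genes on chromosomes 1 to 19 and X in GENCODE M21 (mm10), and the rule used their positions, no peak value. CTCF binding was read in gastrocnemius, the calf muscle, of adult female B6CASTF1/J mice at 2 months of age. ChIP-seq with an antibody to CTCF gave 4 libraries: pool E and pool F, each pooled from 2 tissue samples and sequenced as 2 technical replicates. The labels number the pools as biological replicates 1 and 2. Technical replicates were merged within each pool, so replicate spread can be read only between the 2 pools, from the pool E and pool F values. There was 1 condition and hence no comparison between conditions, and read depth was unknown. The conservative list, which rests on both pools, held 42163 peaks, and 54 of their summits lay from 50 kb before to 50 kb after the body of a member. The mice were an F1 hybrid mapped to the mm10 reference, so the alleles were not told apart, and sequences below are those of the C57BL/6J reference. CTCF peaks carry no expression level, so the labelled tissue could not be checked by marker genes.

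Skeletal muscle shrinks when protein breakdown outpaces synthesis. In that programme FOXO transcription factors, held in the cytoplasm by AKT signalling, enter the nucleus and switch on ubiquitin ligases that mark muscle proteins for the proteasome. Myostatin, a secreted member of the TGF-beta family, limits muscle mass through activin type II receptors and SMAD proteins, and follistatin binds and neutralises it. CTCF is a zinc-finger protein that sits on a long DNA motif, and a pair of its sites with motifs pointing toward each other often forms the base of a chromatin loop. Its binding marks where a gene's neighbourhood may be partitioned and says nothing by itself about how active the gene is.

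The CTCF consensus was compared with the sequence under the summit nearest to each gene's start. Whether the matched bases themselves were bound was not tested. Each line gives 30 bases from the GRCm38 assembly, read on the strand of the best match to the CTCF consensus within 50 bp of the summit, with the 14 bases of that match in capitals.
Fbxo32, chr15:58215350-58215379, plus strand: cagtaccgACTCCAGGCGCCAGggtgtgct
Trim63, chr4:134314053-134314082, plus strand: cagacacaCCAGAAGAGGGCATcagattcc
Foxo1, chr3:52262576-52262605, plus strand: ctcaatgaCCAGAAGGTGGCAGcggatccc
Foxo3, chr10:42267987-42268016, minus strand: atttagagCCAGCAGAGGGAGTccaaaggt
Mstn, chr1:53053246-53053275, plus strand: caaagttcCCAGCAGAGGGGAGaatgtcca
Fst, chr13:114458533-114458562, plus strand: gagtagcaGCAGCAGGAGGCAGagcccgcc
Acvr2b, chr9:119401959-119401988, plus strand: gcgcgctgTCTCCAGAGGGCGCgggctggg
Smad3, chr9:63761903-63761932, minus strand: tacagaggCCAGAAGAGGGCACtgcatctc
Ddit4, chr10:59950791-59950820, minus strand: ccgtgcggCCTGCGGGGGGCACtgctggac
Gadd45a, chr6:67037394-67037423, plus strand: cctcggggCCACTGGAGGACAAagggcccg
The match had 1 mismatch to the consensus at Foxo1, Mstn and Smad3, 2 at Trim63, Foxo3, Fst, Acvr2b and Ddit4, 3 at Gadd45a and 4 at Fbxo32. A match with at most 2 mismatches is called a motif below, and the capitals of the Fbxo32 and Gadd45a lines are therefore the nearest resemblance and no motif. An exact match lay under 3 of the 54 summits, 1 each around Trim63, Foxo1 and Acvr2b, and these sites are shown for comparison.
Trim63, chr4:134292246-134292275, minus strand: agaacctaCCACCAGGGGGCAGgtttgccc
Foxo1, chr3:52254065-52254094, plus strand: cttggaaaCCACTAGATGGCAGccaagccc
Acvr2b, chr9:119430501-119430530, minus strand: tcctgggtCCAGCAGAGGGCACcagaacgc

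**Figure D1:**
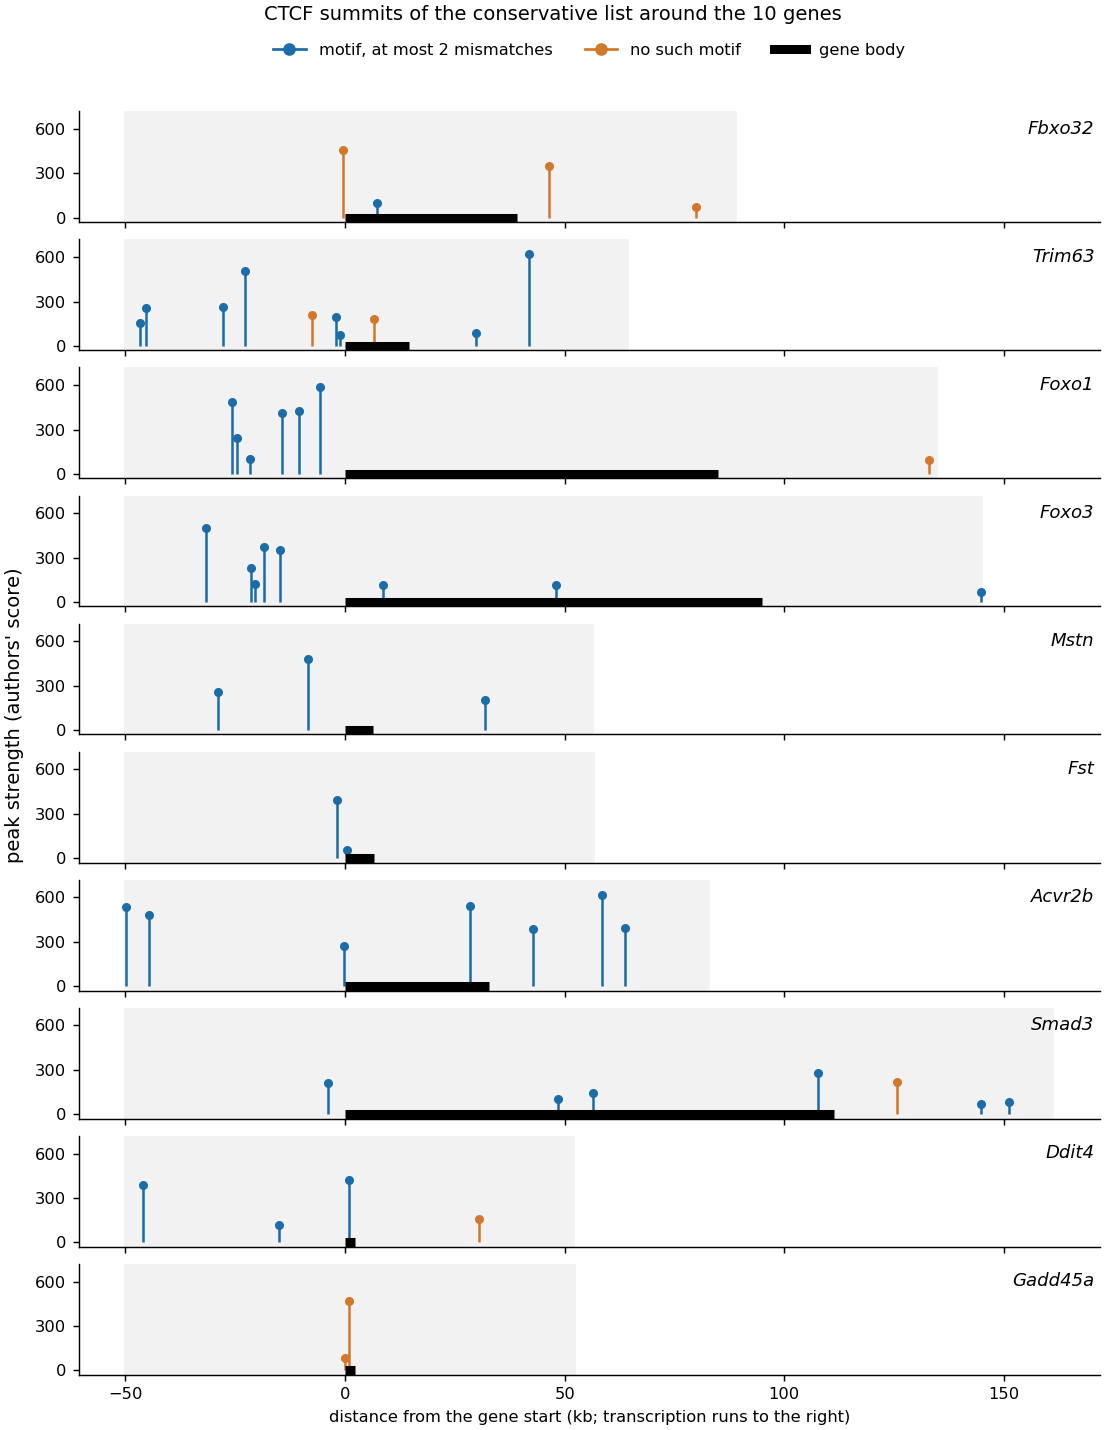
CTCF summits of the conservative list around each of the 10 genes, by distance from the gene start in kb (horizontal, transcription to the right) and peak strength as the authors' score (vertical); grey shading is the window searched and the black bar the gene body. Foxo1 and Foxo3 show a run of summits before the start, and Gadd45a and Fst show none beyond 5 kb.

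The muscle ubiquitin ligase genes differed in how much CTCF surrounded them. Trim63 encodes MuRF1, a RING-finger ligase of the sarcomere, and had 10 summits in its 114.5 kb window. Fbxo32 encodes atrogin-1, the F-box subunit of a muscle ubiquitin ligase, and had 4 summits in 139.1 kb. Per 100 kb these are 8.73 summits for Trim63 and 2.88 for Fbxo32. Among all protein-coding genes 95.7% had a lower density than Trim63 and 49.9% a lower density than Fbxo32. Only 6.23% of protein-coding genes exceeded 8 summits per 100 kb, a level chosen after the values were seen.

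Of the Trim63 summits 7 lay before the gene (positions 134315120 to 134329629 on the plus strand of chromosome 4), 1 in its body and 2 after it. The nearest lay 1063 bp before the start with a strength of 71.1, a score deposited by the authors whose scale was not stated. Its strength was 53.3 in the pool E input and 18.9 in the pool F input, and it was absent from the pool F list. That is a weak peak, stronger than 7.91% of the conservative list. A further summit 2022 bp before the start had a strength of 195. The strongest summit of the window, with a strength of 619.8 and rank 260 of the list, lay 41911 bp after the start of Trim63 in an exon of Extl1, a gene of heparan sulfate synthesis. It scored 349 in the pool E input and 273 in the pool F input. The next strongest, at 506, lay 22846 bp before the start between genes and held the exact match shown above. The other summits ranged from 90.2 to 262, and 1 of them lay at the start of Pdik1l and 1 in an intron of Slc30a2, a zinc transporter gene.

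Fbxo32 (positions 58175879 to 58214932, minus strand of chromosome 15) carried its strongest summit at its own start. This summit lay 431 bp before the start with a strength of 459, stronger than 79.0% of the list. It scored 293 in the pool E input and 172 in the pool F input, and it lay within 1000 bp of the start of the noncoding gene Gm15943 as well. The 101 bases centred on it, chr15:58215313-58215413 on the plus strand and so opposite to the direction of transcription, had a G+C content of 60.4% and no motif. They are shown because this strong start peak lacks a motif, and the capitals mark the best match, with 4 mismatches.
Fbxo32 start peak: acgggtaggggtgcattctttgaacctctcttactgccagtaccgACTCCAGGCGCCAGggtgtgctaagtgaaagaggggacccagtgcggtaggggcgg
The remaining 3 summits lay 7272 bp into the gene in an intron (97.0), 46434 bp from the start between genes (352) and 79816 bp from it at the start of Atad2 (75.2). The intronic summit alone had a motif.

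At both FOXO genes most summits lay before the gene. Foxo1 and Foxo3 encode transcription factors that activate Fbxo32 and Trim63 in wasting muscle. Foxo1 (positions 52268336 to 52353221, plus strand of chromosome 3) had 6 summits before its start, none in its body of 84.9 kb, and 1 after it. Foxo3 (positions 42181841 to 42276755, minus strand of chromosome 10) had 5 before, 2 in its body of 94.9 kb and 1 after. At least 5 summits in the 50 kb before the body were found at 7.52% of protein-coding genes, and no body summit at 10.2% of the 3181 protein-coding genes of 80 kb or more. These comparisons were picked after the values were seen. In all, 3 members had 5 or more summits before the body, Trim63 being the third.

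The Foxo1 run spanned 19.9 kb, from 25663 to 5756 bp before the start. Its summits had strengths of 483, 245, 99.7, 410, 429 and 589.8, in order toward the gene. The 3 farthest lay in or at the start of the pseudogene Olfr1398-ps1. All 6 held a motif, 4 on the plus strand and 2 on the minus strand, and the 3 nearest to Foxo1 were all on the plus strand, pointing toward the gene. The summit nearest to the gene ranked 1003 in the list and scored 344 in the pool E input and 248 in the pool F input. The Foxo3 run spanned 16.7 kb, from 31566 to 14823 bp before the start, with strengths of 501, 227, 124, 373 and 354. Each held a motif, and the 4 nearest to Foxo3 were on the minus strand, which again points toward that minus-strand gene. In the body of Foxo3 the summits were weaker, with strengths of 116 at 8754 bp and 112 at 48052 bp from the start, both in introns.

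Mstn, the myostatin gene, sat between CTCF sites without a peak near its start. It lies at positions 53061640 to 53068079 on the plus strand of chromosome 1, and 3 summits fell in its window. They lay 28872 bp before the start (strength 259), 8392 bp before it (477) and 31763 bp after it (204), none in the gene. All 3 had a motif with 1 mismatch. The 2 that flank the gene faced each other across 40.2 kb with no other protein-coding gene between them, and their sites are given with the pair in order along the chromosome.
Mstn, chr1:53053246-53053275, plus strand: caaagttcCCAGCAGAGGGGAGaatgtcca
Mstn, chr1:53093382-53093411, minus strand: catcacgtCCTCCAGGGGGCACtagataac
The first of these scored 286 in the pool E input and 193 in the pool F input, and the second 155 in the pool E input and 51.9 in the pool F input. The summits in the Mstn window numbered 3 in the pool E, pool F, combined and conservative lists alike. Even the ranked list, which holds peaks that failed the reproducibility threshold, had no peak within 5 kb of the Mstn start.

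Fst, which encodes follistatin, the secreted antagonist of myostatin and activins, had conservative CTCF summits close to its start and nowhere else in its window. The gene occupies positions 114452290 to 114458951 on the minus strand of chromosome 13. A summit of strength 396 lay 1873 bp before the start, in an intron of the noncoding gene Gm47040, and scored 253 in the pool E input and 147 in the pool F input. A weak summit of strength 54.4 lay 423 bp into the gene, with 39.9 in the pool E input and 14.9 in the pool F input. The weak summit had an IDR, the irreproducible discovery rate based on peak ranks in the pools, of 0.0315, the highest of the 54, and was absent from the pool F list.

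Acvr2b, the receptor gene, was the member with the strongest surroundings. It encodes activin receptor type IIB, which binds myostatin, and lies at positions 119402118 to 119434995 on the plus strand of chromosome 9. Its 7 summits had a median strength of 480, against 246 over the list, and all 7 exceeded the list's median. Every summit had a motif. A summit of strength 271 lay 170 bp before the start and scored 196 in the pool E input and 77.3 in the pool F input. A stronger one, 544, lay 28397 bp into the gene in an intron and held the exact match shown above. The strongest, with a strength of 614 and rank 358, lay in an intron of the neighbour Exog, a mitochondrial nuclease gene, and the rest, from 384 to 534, lay 42720 bp or more from the start of Acvr2b.

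Smad3, which carries the receptor signal to the nucleus, had the weakest leading peak. At positions 63646767 to 63757994 on the minus strand of chromosome 9 it is the longest member, 111.2 kb. Its 7 summits ran from 72.1 to 278, and only 1 exceeded the list's median strength. That summit lay 107631 bp from the start, in an exon of Smad3, with 173 in the pool E input and 106 in the pool F input. The summit nearest to the start lay 3952 bp before it with a strength of 212, 140 in the pool E input and 71.1 in the pool F input. The body held 2 further summits (144 and 104), and 3 lay in introns of the neighbour Aagab.

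The stress genes Ddit4 and Gadd45a are short, and in each a strong summit lay inside the gene. Ddit4 encodes REDD1, an inhibitor of mTORC1 that glucocorticoids and low oxygen induce. It spans 2.17 kb at positions 59949669 to 59951834 on the minus strand of chromosome 10. Its summit lay 1006 bp into the gene, in an exon, with a strength of 423 (281 in the pool E input and 141 in the pool F input). The other summits lay 15108 bp before the start (117), 45993 bp before it in an exon of Anapc16 (390.1) and 30547 bp after it (155). Gadd45a, a growth arrest and DNA damage gene that rises in denervated muscle, spans 2.36 kb at positions 67035096 to 67037457 on the minus strand of chromosome 6. Summits lay 895 bp into the gene (469.5; 307 in the pool E input and 168 in the pool F input) and 75 bp into it (84.0; 55.2 in the pool E input and 26.6 in the pool F input). Neither had a motif, and 3 mismatches was the best match at both, so Gadd45a was the member with no motif under any summit. Both also fell within 1000 bp of the start of the noncoding gene E230016M11Rik.

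Near the start, within 5000 bp, 7 of the 10 members had a conservative summit (95% Wilson interval 39.7 to 89.2%, counting error only), while 37.4% of all protein-coding genes had one. The members without one were Foxo1, Mstn and Foxo3, whose nearest summits lay 5756, 8392 and 8754 bp away. Smad3, at 3952 bp, lay just inside. Within 1000 bp the count was 4 of 10 (Fbxo32, Fst, Acvr2b and Gadd45a) against 20.6% of all genes, with Ddit4 at 1006 and Trim63 at 1063 bp just outside. Within 20000 bp it was 10 of 10 against 65.9%. Counting any annotated transcript start gave 7 of 10 members against 47.2% of all genes. A summit in the gene body was found at 8 of 10, all but Foxo1 and Mstn, against 45.8% of all genes. No matched comparison was made, so none of these counts can be called particular to the members.

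In density the members were spread around the middle of all genes. Their median was 3.55 summits per 100 kb, against 2.88 over all protein-coding genes (quartiles 1.12 and 4.89). Above that median stood 6 members: Trim63 (8.73), Acvr2b (5.27), Foxo3 (4.10), Ddit4 (3.92), Foxo1 (3.79) and Smad3 (3.31). Fbxo32 (2.88) and Mstn (2.82) lay beside it, and Gadd45a (1.95) and Fst (1.88) below it. Counts of 2 to 10 summits per window are too small to separate neighbours in this order.

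**Figure D2:**
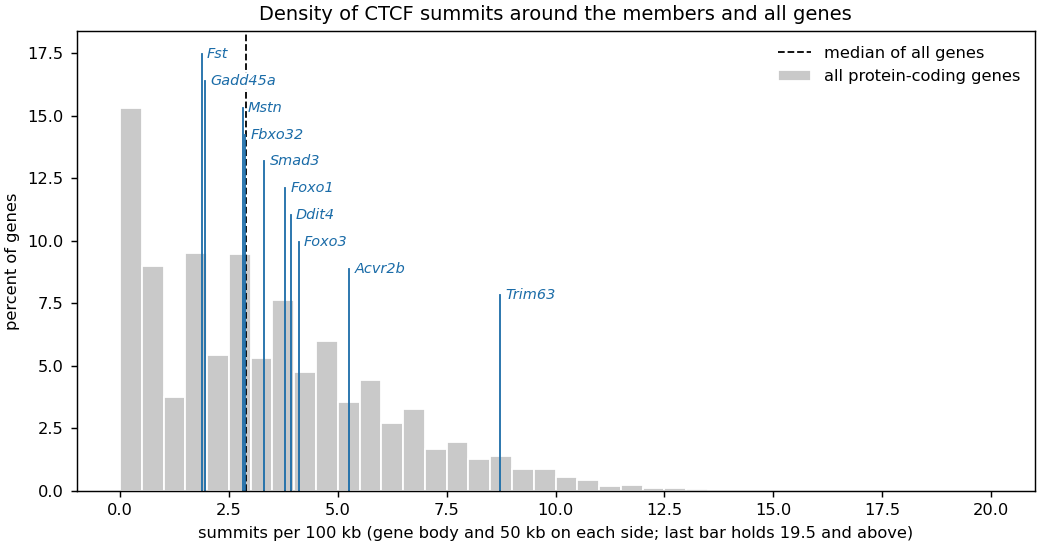
Summits of the conservative list per 100 kb of gene body and 50 kb on each side (horizontal) and the percent of protein-coding genes in each class (grey bars, vertical), with a blue line for each member. Trim63 stands at 8.73 and the other 9 members lie between 1.88 and 5.27; the dashed line is the median of all genes, 2.88.

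The member summits were close in strength to the list as a whole. Their median was 251, against 246 over all conservative peaks, and 27 of the 54 lay above the list's median. A motif lay under 44 of the 54 (81.5%, interval 69.2 to 89.6), against 77.6% of all conservative summits and 3.17% of windows displaced by 2000 bp. Within 5000 bp of the member's start 7 of 10 summits had a motif and farther away 37 of 44 did. Over the whole list, split by distance to the start of any protein-coding gene, the shares were 64.0% near a start and 81.5% elsewhere. The member split used the member's own start only, so its farther summits include some at the starts of other genes. The 10 member summits without a motif had a median G+C content of 61.4% in the 101 bases around the summit, and the 44 with one 49.0%. Over the list the median was 53.5% without a motif and 50.5% with one.

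A sequence recurred under some of the sites, most of them weak. Among the 44 motif-bearing summits, 9 shared the same first 12 bases of the motif, CCAGAAGAGGGC, whereas no other start of the motif occurred at more than 2. The 9 lay around 5 members: Smad3 and Foxo3 with 3 each and Fbxo32, Trim63 and Ddit4 with 1 each. They include the sites nearest to the starts of Trim63 and Smad3 printed above, and 4 more show how far the likeness runs on either side.
Fbxo32, chr15:58207634-58207663, minus strand: cctgcatgCCAGAAGAGGGCATcagatccc
Foxo3, chr10:42297287-42297316, minus strand: cctgcataCCAGAAGAGGGCACcagatctc
Smad3, chr9:63709463-63709492, minus strand: tgcagaggCCAGAAGAGGGCACcagatcct
Ddit4, chr10:59966921-59966950, plus strand: tgtgatggCCAGAAGAGGGCATcaggtttc
All 9 lay in sequence that the reference marks as repetitive, while 4 of the other 35 motif sites did. Mouse B2 elements, a family of short mobile repeats, are known to carry CTCF motifs; no repeat annotation was used here, so the sites were not assigned to a family. The median strength was 104 for the 9 and 373 for the other 35. The exception among the 9 was the Foxo3 summit 14823 bp before the start, whose strength of 354 was above the list's median. The same 12 bases stood at 13.96% of the motif sites in the whole list (4568 of 32727), the most frequent start of the motif there too, with a median strength of 129, against 327 at motif sites without them. On either strand they occurred within 101 bases centred on 9 of the 54 member summits (16.7%, interval 9.02 to 28.7) and 11.1% of all conservative summits, and in 0.432% of windows displaced by 2000 bp. The interval at the members thus held the background share, and the sequence was examined because its letters were seen to recur.

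CTCF motifs faced inward around 6 of the 10 genes. For each gene the nearest motif-bearing summits to the left and right of the body were taken, wherever they lay. They were convergent, plus on the left and minus on the right, at Trim63, Foxo3, Mstn, Fst, Acvr2b and Smad3. The left site at Fst lay outside its window, 141014 bp from the gene body. Both sites were weak at Trim63 (71.1 and 90.2), as were the left sites at Foxo3 (65.1) and Smad3 (72.1). None of these weak peaks overlapped a peak of the pool F list. At Fbxo32, Foxo1, Ddit4 and Gadd45a both motifs were on the same strand, and none of the 10 pairs was divergent. Among all protein-coding genes 28.9% had a convergent pair and 25% a divergent one; genes that lie between the same sites share a pair. The pairs spanned from 30.8 kb at Trim63 to 370.2 kb at Foxo1. Acvr2b, like Mstn, was the only protein-coding gene between its pair, which began 170 bp before its start and spanned 42.9 kb. The same held for Foxo1 and Foxo3. The count depended on the motif definition, since with at most 1 mismatch 3 of 10 pairs were convergent. The share over all genes is given only for at most 2 mismatches. Whether it falls likewise is therefore not known.

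Both pools held most of the member peaks. At a reciprocal overlap of 50%, 48 of the 54 (88.9%) had a pool E partner, against 87.8% of all conservative peaks. A pool F partner was found for 37 (68.5%), against 66.2% of all. Median strength was 99.7 at the 17 member peaks lacking a pool F partner at that overlap and 384 at the other 37. Strength in the pool E input exceeded that in the pool F input at all 54 summits, by a median log2 ratio of 0.98 (range 0.33 to 1.98), against 1.03 over the list; the scale of each input was not stated, so the ratio is not read as a difference in binding. With any overlap counted, 52 had a partner in the pool E list. The 2 left over were the strongest member peaks, in Extl1 and Exog, which scored 349 and 344 in the ranked pool E list but had an IDR of 0.205 and 0.601 there, above the threshold of 0.05. The IDR in that list was taken within pool E, not between the pools.

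**Figure D3:**
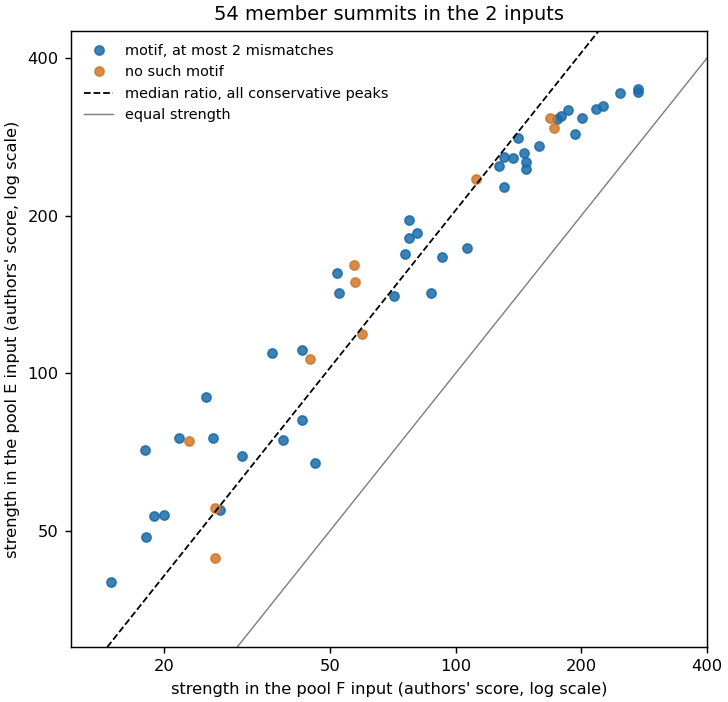
Strength of the 54 member summits in the pool E input (vertical) and the pool F input (horizontal), both as the authors' score on log scales. Every point lies above the grey line of equal strength, and the points scatter around the dashed line, the median log2 ratio of 1.03 over all conservative peaks.

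The count of summits per gene shifted with the list, and the lists differ in length. Pool E gave 50899 peaks, pool F 33784 and the combined list 49649, and the member windows held 63 summits of pool E and 44 of pool F. The widest gap in number between the pools was at Smad3, which had 11 from pool E and 4 from pool F, with 11 in the combined and 7 in the conservative list. Foxo1 had 9 from pool E and 5 from pool F, and Fst had 3 from pool E and 1 from pool F. Mstn, Acvr2b and Gadd45a had equal counts in pool E and pool F. The equal counts at Acvr2b do not mean the same peaks, since a pool E summit 447 bp into the gene had no conservative peak under it and the Exog peak had no pool E partner. The pool E list added a summit 113 bp into Foxo1, which made 8 members with a summit within 5000 bp of the start in that list, against 43.3% of all genes. The combined list also gave 8, against 42.7% of all genes, and the pool F list 7, against 31.5%.

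**Figure D4:**
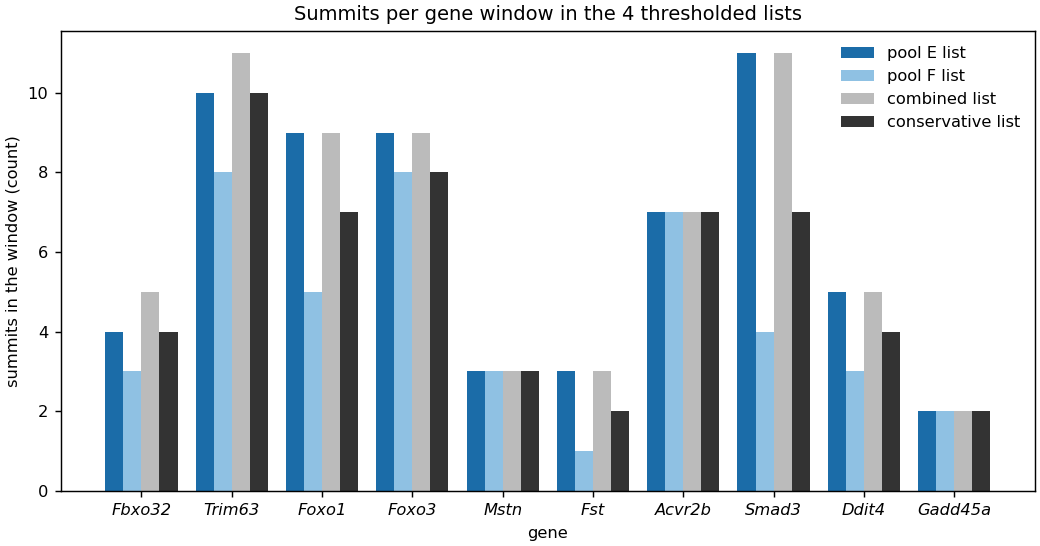
Number of summits in each gene's window (vertical) in the pool E, pool F, combined and conservative lists. The bars of Mstn, Acvr2b and Gadd45a are level, and those of Smad3 have the widest gap in number, 11 in pool E and 4 in pool F; the pool E list is the longer.

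Other genes of these pathways, in lists drawn up by role, were also set beside all protein-coding genes. Of the 88 genes, 56 had a conservative summit within 5000 bp (63.6%, interval 53.2 to 72.9), against 37.4% of all protein-coding genes. Within 1000 bp it was 25 of 88 (28.4%), against 20.6% of all genes. The genes of a list are not independent, and Mt1 and Mt2, for example, are neighbours. No matched comparison was made here either, so these shares cannot be called particular to the pathways. The members' own 7 of 10 stood close to the 63.6%. In the list of myostatin and activin signalling, 14 of 18 genes had a summit near the start. The strongest lay near Tgfb1 (strength 495), a growth factor gene, Fstl3 (483), a follistatin-like antagonist gene, and Gdf11 (470.3), the closest relative of Mstn. Acvr1b, a type I receptor gene, had its nearest summit at 24347 bp. In the insulin, AKT and mTOR list the count was 15 of 21. Tsc2 (609), a brake on mTORC1, Igf1r (570.2), a growth factor receptor gene, and Irs2 (519), an adaptor of the insulin receptor, led, and Pik3ca, a lipid kinase gene, had its nearest summit at 17578 bp.

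Among genes of the BMP arm, which opposes myostatin in muscle, 6 of 11 had a summit near the start. Gdf5 (547), a ligand that protects denervated muscle in mice, Nog (517), which encodes the BMP antagonist noggin, and Gdf6 (482) led, and Bmp7 had none within 56131 bp. In the list of ubiquitin and autophagy genes 11 of 20 had one, with Becn1 (567), Traf6 (518) and Fbxo30 (489.5), a ligase gene of the BMP-controlled atrophy programme, in the lead and Fbxo40 without one within 18229 bp. In the list of glucocorticoid, stress and denervation genes it was 10 of 18. Cebpb (588), a transcription factor gene, Gadd45g (563), a relative of Gadd45a, and Sesn2 (541), a stress sensor gene, led, and Nr3c1, the glucocorticoid receptor gene, had its nearest summit at 29406 bp. The median density of summits ran from 3.44 per 100 kb in the insulin list to 5.74 in the glucocorticoid and stress list, beside 3.55 for the members and 2.88 for all genes.

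**Figure D5:**
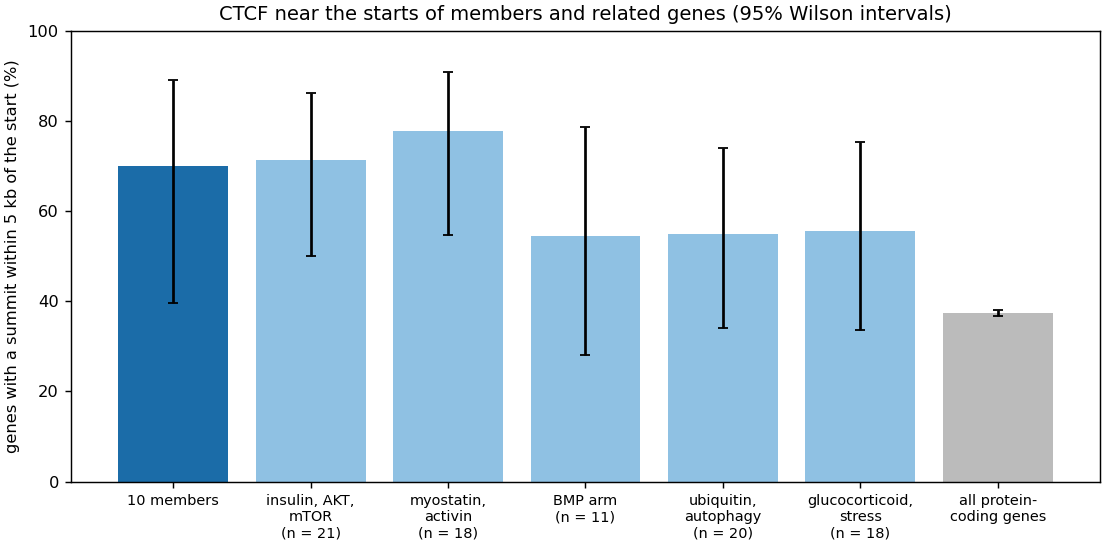
Percent of genes with a conservative summit within 5 kb of the start (vertical) for the 10 members, the 5 related lists and all protein-coding genes, with 95% Wilson intervals as bars. The members stand at 70%, the lists between 54.5% and 77.8%, and all genes at 37.4%.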

How the data were processed

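CTCF ChIP-seq peaks of 4 libraries from 2 pools were taken as deposited. Per the notes deposited with each sample, technical replicates were merged per pool and 1 control alignment served both; the build was mm10, and the aligner and peak caller are not given in the sources used here. The peak strength is a score deposited by the authors, with no stated scale. Ranked lists give each peak's −log10 IDR, deposited by the authors, and the thresholded lists rest on an IDR of 0.05. The 2 input columns were assigned to pools by equal strengths: 99.98% of conservative peaks had their first value in pool E's ranked list and 98.98% their second in pool F's.

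Summits (start plus offset, printed counting from 1) were counted with Python 3.11.15, numpy 2.4.6 and pandas 2.3.3 against GENCODE M21 and the GRCm38 genome. A promoter summit lay within 1000 bp of a gene start; reciprocal overlap was 50%. The CTCF consensus of 14 bases was searched on both strands with its centre within 50 bp of the summit. The counting and motif search were tested on simulated data. Intervals are 95% Wilson intervals (scipy 1.17.1), for counting error only. No test was run, since there was 1 condition, with pools E and F as its 2 biological replicates; members and lists were chosen with earlier results of these data known. All members were named. From each related list the rule took the 3 genes whose summits near the start were strongest, and the first listed gene lacking such a summit. Other lists, windows, overlaps and mismatches were tried.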

Additional observations from a re-analysis of the deposited data

How the results depend on the processing

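Of 36 alternatives to the main counts and shares, 26 stayed within 1.5 times the count or inside the share's interval. For members near a summit no rise from 7 could leave that range, since 10 is the most possible. The pooled density of 3.87 summits per 100 kb became 11.04 without an IDR threshold and 1.94 for peaks above the list's median strength; other lists and flanks gave 3.15 to 4.66. Near the start, 7 of 10 members (37.4% of all genes) became 4 within 1000 bp (20.6%), 9 without an IDR threshold (63.6%), 5 for peaks above the median strength (20.6%) and 10 within 20 kb (65.9%). The motif share of 81.5% became 38.9% with at most 1 mismatch and 96.3% with at most 3, a setting met by 93.9% of all conservative summits and 18.6% of displaced windows. The share with a partner became 96.3% (pool E) and 79.6% (pool F) with an overlap of 1 bp. With a reciprocal overlap of 80% it became 79.6% (pool E) and 3.70% (pool F). At these overlaps and at 1 mismatch no share over all conservative peaks is given. Those values are therefore not read as a trait of the member peaks. Convergent pairs fell to 3 with at most 1 mismatch, against 6, and stayed at 6 with the combined list and for peaks above the median strength. The share over all genes, 28.9%, is given only at the main setting. The pairs above the median strength are not all the same, since weak flanking sites at Trim63, Foxo3 and Smad3 drop out there. Related genes near a summit numbered 25 of 88 (28.4%) within 1000 bp, against 20.6% of all genes, where 5000 bp gave 56 (63.6%) against 37.4%. The cause of these shifts was not tested beyond their construction. The list of pool E alone gave 4.52 summits per 100 kb and 8 members near a summit (43.3% of all genes). The list of pool F alone gave 3.15 and 7 (31.5%). Each pool list takes its IDR within that pool, so the reproducibility criterion changed along with the biological replicate left out. No paired analysis was possible because there is 1 condition, and the technical replicates are merged.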

Other observations

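Some ranked peaks near member starts did not pass the reproducibility threshold. At Foxo1 a ranked peak of strength 62.9 lay 114 bp into the gene with an IDR of 0.0562, just above the threshold of 0.05. At Foxo3 the strongest ranked peak within 5000 bp of the start had a strength of 25.1 and an IDR of 0.126. Fst had a ranked peak of strength 89.8 in the gene, 2605 bp from the start, with 68.8 in the pool E input, 14.4 in the pool F input and an IDR of 0.610.

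The threshold also acted at the top of the strength scale. Of 172 ranked peaks with a strength of 650 or more, 17.4% reached the conservative list, and of 873 from 600 to below 650, 73.4% did, while 98.7% to 99.99% did between 200 and 600. In the member windows no such strong peak was lost, since the strongest ranked peak outside the conservative list was the one of 89.8 in Fst.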
